A study of Mus musculus with 12 samples.

Results

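Aortic valves of mice that had lost both copies of Gata5 were compared with valves that had lost 1 copy, both on a Notch1+/- background, by RNA sequencing at postnatal day 10. The comparison took in 8 of the 12 libraries of the study and every gene in its count table, and its members were chosen by genotype label alone. The 4 libraries labelled Notch1+/-;Gata5-/- are called Gata5-/- below and the 4 labelled Notch1+/-;Gata5+/- are called Gata5+/-. Each library was a pool of 3 valves, so the pool, not the animal, was the replicate. The 4 wildtype pools of the same age entered the estimate of the spread, and their levels stand beside some results. Both mutant groups carry the Notch1+/- label, so by label the comparison varied the number of Gata5 copies and held Notch1 constant. The labels used here give no sex, and levels of sex-linked genes differed between pools, as given below. No Gata5-/- group with wildtype Notch1 was analysed here. Which exons of Gata5 or Notch1 the alleles lack is not stated in the labels, and nothing in them says that same-numbered pools belong together or that pools came from separate litters.

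Notch1 is a transmembrane receptor that, once bound by a ligand on a neighbouring cell, is cut to release a fragment that acts on transcription in the nucleus. Gata5 is a zinc finger transcription factor that binds DNA at GATA sequence words and is known for its role in the endocardium, the inner lining of the heart. Loss of function of NOTCH1 in people, and loss of Gata5 in mice, are both associated with bicuspid aortic valve, a valve with a pair of leaflets in place of the usual set. The leaflets hold interstitial cells in layers of collagen, proteoglycan and elastic fibre under an endothelial sheet, and they hang from the aortic root, which has smooth muscle in its wall.

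The 8 libraries held 13866604 to 25059653 counts each. In CPM (a gene's count relative to its library's total after scaling), 3 counts came to 0.124 to 0.207 CPM, which is the level that a gene at 0 could still hold. Such limits cover counting error only. Markers of interstitial, endothelial, smooth muscle and heart muscle cells were counted in every library. Elastin (Eln) alone took 7.55% to 9.68% of the counts in Gata5+/- and 6.30% to 8.94% in Gata5-/-. The interstitial marker Postn lay at 1851 to 2288 CPM and the endothelial marker Pecam1 at 171 to 289 CPM. The giant heart muscle protein Ttn took 1.68% to 2.74% of the counts and overlapped between groups. Gata5-/- replicate 3 stood apart from the rest before any comparison: it had 6000 of the 20620 deposited genes at 0, against 1017 to 2908 in the other 7, the smallest total and the lowest mean Spearman correlation with the other libraries, 0.892 against 0.933 to 0.950. Of the 8 libraries, it was the only one at 0 for 1898 genes, against 13 to 222 for each of the others. Values without it are given beside many of the results below.

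Gata5 mRNA was not detected in any Gata5-/- library. It had 97, 112, 98 and 15 counts in Gata5+/- replicates 1 to 4 and 0 counts in all 4 Gata5-/- libraries, over 74376369 counts in all. In CPM, Gata5 lay at 5.05, 5.66, 4.94 and 0.728 in the Gata5+/- libraries, a mean of 4.09 ± 2.27 (SD, n = 4), and at 1.77 ± 1.03 (SD, n = 4) in wildtype. The mean was thus higher in Gata5+/- than in wildtype, although the label gives Gata5+/- 1 copy fewer, and the reason was not tested. Replicate 4 of Gata5+/- was low, with its 15 counts nearer to the 18 and 19 counts of wildtype replicates 2 and 4 than to the other Gata5+/- libraries, and it did not overlap with Gata5-/-. Against a floor of 3 counts over the whole Gata5-/- group, which is 0.0397 CPM, the level was at least 103.1-fold lower than the mean of Gata5+/- and at least 18.3-fold lower than its lowest library. The two-sided exact permutation p was 0.0286, the smallest that 35 distinct splits of 8 libraries can give. Gata5 had the smallest p of all 19346 genes tested, but its adjusted p was 0.56 by edgeR's quasi-likelihood test and 1.79e-06 by DESeq2.

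The difference in Notch1 was smaller than the spread between pools. It lay at 182, 148, 162 and 194 CPM in the Gata5+/- libraries and at 213, 207, 152 and 168 CPM in the Gata5-/- libraries, and the groups overlapped. The log2 fold change, Gata5-/- minus Gata5+/-, was 0.11 (SE 0.15), with a 95% interval of -0.20 to 0.42. The exact permutation p was 0.457 and edgeR's adjusted p was 1.

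No gene passed an adjusted p of 0.05 between Gata5-/- and Gata5+/- valves by edgeR's quasi-likelihood test, 0 of 19346 (0%). At an unadjusted p under 0.05 stood 616 genes (3.18%), of which 213 were higher (1.1%) and 403 lower (2.08%) in Gata5-/-. If no gene differed, a threshold of 0.05 would be expected to pass a larger share than 3.18%. Under 1 log2 CPM there were 25 higher and 198 lower, between 3 and 5 there were 97 and 69, and over 7 there were 4 and 37. With the 8 libraries alone in the fit the direction turned, with 203 higher and 170 lower. The count of 616 depended on single pools: it was 965 without Gata5-/- replicate 1, 945 without replicate 2, 683 without replicate 3 and 1426 without replicate 4. Groups did not overlap for 529 genes (2.73%), of which 136 were higher (0.703%) and 393 lower (2.03%) in Gata5-/-, and without Gata5-/- replicate 3 for 1001, with 399 higher and 602 lower. For 4 libraries against 4, random labels alone would set a gene's groups apart at a rate of 0.0286, close to 2.73%. Limma-voom called 0 genes. DESeq2 called 13 of 20458 (0.0635%), 2 higher (0.00978%) and 11 lower (0.0538%), among them Gata5, Synpo2 and Upb1.

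**Figure D1:**
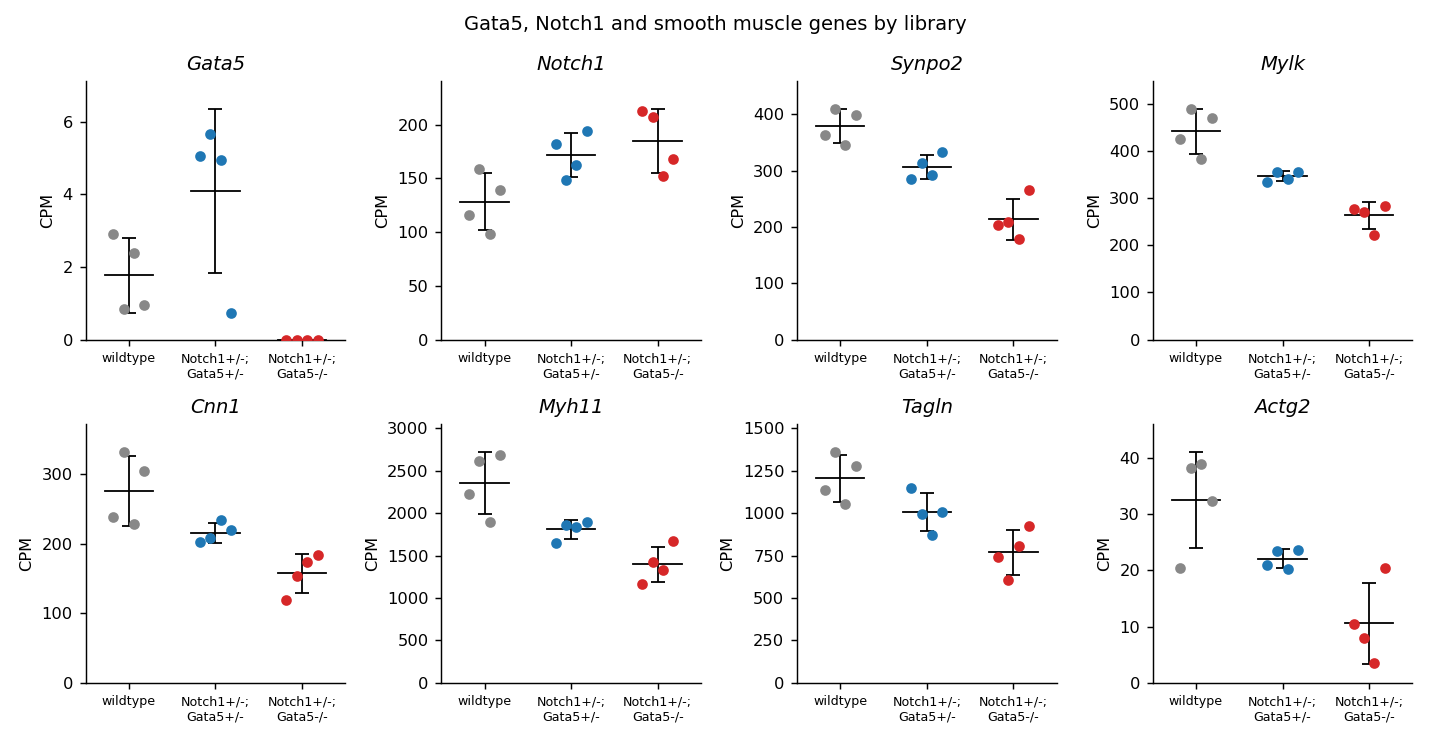
CPM of Gata5, Notch1 and 6 smooth muscle genes in the 12 libraries, by genotype (points, 1 library each; horizontal line and bar, mean ± SD of 4 libraries; vertical axis from 0). Gata5 sits at 0 in all 4 Gata5-/- libraries, Notch1 overlaps between both mutant groups, and Synpo2, Mylk and Cnn1 are lower in every Gata5-/- library than in any Gata5+/- library, and edgeR called none of the genes drawn while DESeq2 called Gata5 and Synpo2.

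The depth and the number of pools set which differences could be seen. Among the 1246 genes with a mean log2 CPM over 7, the 95% interval of the fold change lay within 2-fold either way for 98.4%, and within 1.5-fold for 87%. For the 4014 genes between 5 and 7 these shares were 97.7% and 70.1%. For the 4440 genes under 1 log2 CPM no interval lay within 2-fold, and the median half-width was 3.89 on the log2 scale. Over all genes tested the median log2 fold change was -0.04. Log2 fold changes were above 0 for 44.5% of genes and below 0 for 55.4%.

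**Figure D2:**
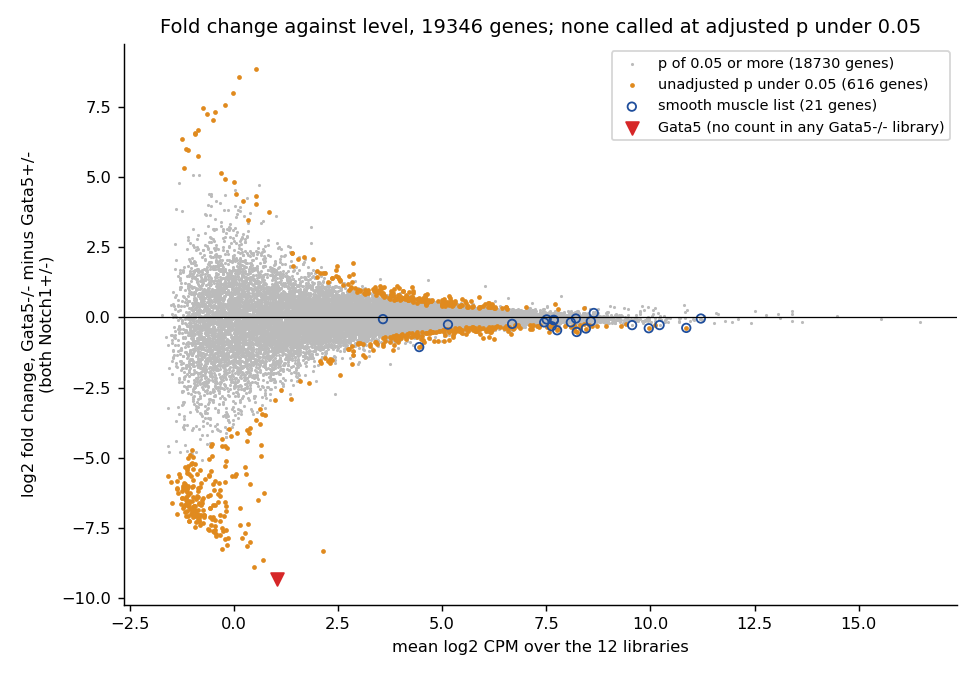
Log2 fold change, Gata5-/- minus Gata5+/-, of the 19346 genes tested against their mean log2 CPM over 12 libraries. Orange points are the 616 genes at an unadjusted p under 0.05, blue rings the 21 smooth muscle genes and the red triangle Gata5. Fold changes narrow towards 0 with rising level, and 20 of the 21 rings lie below 0, against 55.4% of all genes tested.

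Genes at 0 throughout a group were found on the Gata5-/- side. In Gata5-/-, 61 of the 20620 deposited genes were at 0 in all 4 libraries and counted in all 4 Gata5+/- libraries, and no gene showed the reverse. No deposited gene had fewer than 33 counts over the 12 libraries or was at 0 in more than 9 of them. Genes at 0 throughout a group are thus in the count table through the libraries in which they were counted. Gata5-/- libraries also had more genes at 0 in general (1734 to 6000) than Gata5+/- libraries (1017 to 2000), and the part of this in the 61 was not tested. Without replicate 3 the counts were 74 and 10. Of the 61, Gata5 had the highest mean level in Gata5+/-. Only 4 others reached Gata5's lowest level in every Gata5+/- library, the provisional genes Gm11769, Gm3617 and Gm21986 and an unnamed identifier. Upb1, an enzyme of pyrimidine breakdown, came close, with 25, 28, 64 and 65 counts in Gata5+/- and 0, 0, 0 and 2 in Gata5-/-. Its level was 86.5 times as high in Gata5+/- over the summed counts, with a counting interval of 23.6 to 719.9, and wildtype lay at 2.31 ± 1.38 CPM (SD, n = 4). DESeq2 gave Upb1 an adjusted p of 0.00446 and edgeR 1. Of DESeq2's 13 calls, 9 were lower genes at 0 in every Gata5-/- library, Gata5 included, and 5 were genes counted in 2 or fewer of the 8 libraries.

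Smooth muscle genes lay lower in the valves without Gata5 than in those with 1 copy, by a small margin and below edgeR's threshold for a call. Of 21 contractile smooth muscle genes, all tested, 20 had a log2 fold change below 0 and 1 above, against 55.4% below 0 among all genes. At an unadjusted p under 0.05, 7 were lower and none higher, against 2.08% lower and 1.1% higher among all genes. EdgeR called none, while DESeq2 called Synpo2. The list was chosen with earlier results of these data known, and members measured in the same pools are not independent of each other. The list's median log2 fold change was -0.23 against -0.04 for all genes. Without Gata5-/- replicate 3 the median was -0.18, with 18 below 0 and 3 above. The list's summed level ran from 9056 to 12040.2 CPM in Gata5+/- and from 7808 to 11411 CPM in Gata5-/-, so the sums overlapped, and from 11374 to 13868 CPM in wildtype. In bulk valve RNA, fewer smooth muscle cells and less of these RNAs per cell cannot be told apart.

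Synpo2, which encodes an actin-binding protein of the muscle Z-disc, had the second smallest p of all genes. It lay at 286, 314, 292 and 334 CPM in Gata5+/- and at 204, 208, 179 and 265 CPM in Gata5-/-. Every Gata5-/- library was below every Gata5+/- library, and replicate 3 was the lowest. The log2 fold change was -0.52 (SE 0.13, 95% interval -0.78 to -0.26), with an unadjusted p of 0.000378 and adjusted p-values of 1 by edgeR and 0.0494 by DESeq2, and without replicate 3 it was -0.44. Wildtype lay at 379.7 ± 30.4 CPM (SD, n = 4).

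Mylk, the kinase that phosphorylates myosin light chain to start contraction, lay at 335, 356, 339.7 and 355 CPM in Gata5+/- and at 278, 271, 221 and 283 CPM in Gata5-/-. Its groups did not overlap, and its log2 fold change was -0.40 (SE 0.12) at an unadjusted p of 0.00243, or -0.32 without Gata5-/- replicate 3. Cnn1, the actin-binding calponin of differentiated smooth muscle, lay at 202, 208, 234 and 219 CPM against 119, 153, 173 and 184 CPM, also without overlap, with a log2 fold change of -0.46 (SE 0.14) and an unadjusted p of 0.00425. Of the 21 smooth muscle genes, 3 had all Gata5-/- libraries below all Gata5+/- libraries, against 2.03% of all genes. Without Gata5-/- replicate 3, which can only keep or add such genes, it was the same number against 3.11%.

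Myh11, the smooth muscle myosin heavy chain, and Tagln (transgelin) had lower means with overlapping pools. Myh11 lay at 1648, 1857, 1839.9 and 1891 CPM in Gata5+/- and at 1169, 1426, 1328 and 1666 CPM in Gata5-/-, a log2 fold change of -0.37 (SE 0.12, unadjusted p 0.00603). Only Gata5-/- replicate 4 reached into the Gata5+/- range. Tagln lay at 1147, 995, 872 and 1009 CPM against 744, 605, 805 and 926 CPM, a log2 fold change of -0.39 (SE 0.13, unadjusted p 0.00643). Actg2, the gamma actin of enteric-type smooth muscle, was scarcer and more spread, at 20.3 to 23.6 CPM against 10.4, 8.03, 3.44 and 20.4 CPM, a log2 fold change of -1.06 (SE 0.36). Gata5-/- replicate 4 had the highest value of its group for Synpo2, Mylk, Cnn1, Myh11, Tagln and Actg2 alike, and without it the list's median was -0.36.

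Pericyte and mural receptor genes, a separate list, were centred near 0. Of 14 pericyte and mural receptor genes, 9 had a log2 fold change above 0 and 5 below, none was at an unadjusted p under 0.05 in either direction, and the median was 0.06. Pdgfrb, the growth factor receptor of mural cells, lay at 206 to 248 CPM in Gata5+/- and at 196 to 289 CPM in Gata5-/- (log2 fold change 0.16, 95% interval -0.13 to 0.44). From the smooth muscle list, Acta2, smooth muscle alpha actin, had a log2 fold change of -0.27 with an interval of -0.56 to 0.01. Myocd, also of the smooth muscle list and the coactivator that switches on contractile genes, had one of -0.23 with an interval of -0.54 to 0.08.

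Promoter sequences are shown for Gata5 and for Synpo2, the gene with the smallest p after it, and for Myl9 and Pln as list members that do carry a motif searched for. Each covers 250 bases before and 50 bases after a gene start in RefSeq on GRCm38.p6 and reads 5′ to 3′ along the gene: Gata5 at chr2:180334630-180334929 (minus strand), Synpo2 at chr3:123236100-123236399 (minus strand), Myl9 at chr2:156775214-156775513 (plus strand) and Pln at chr10:53337436-53337735 (plus strand). Capitals mark a GATA word (AGATAA or AGATAG, and likewise TGATAA or TGATAG, on either strand) or the CArG box, the word bound by serum response factor in muscle promoters.
Gata5: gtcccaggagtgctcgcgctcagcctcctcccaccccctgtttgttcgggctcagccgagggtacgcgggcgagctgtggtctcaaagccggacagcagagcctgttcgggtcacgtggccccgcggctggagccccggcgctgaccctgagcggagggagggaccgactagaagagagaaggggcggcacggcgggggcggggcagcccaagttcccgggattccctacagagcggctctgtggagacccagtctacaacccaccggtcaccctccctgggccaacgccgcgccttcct
Synpo2: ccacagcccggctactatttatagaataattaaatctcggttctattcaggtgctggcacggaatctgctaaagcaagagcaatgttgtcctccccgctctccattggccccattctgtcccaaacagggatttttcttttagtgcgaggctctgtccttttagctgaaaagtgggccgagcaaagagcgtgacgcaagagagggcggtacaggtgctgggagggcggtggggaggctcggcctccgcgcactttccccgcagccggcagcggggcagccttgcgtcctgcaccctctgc
Myl9: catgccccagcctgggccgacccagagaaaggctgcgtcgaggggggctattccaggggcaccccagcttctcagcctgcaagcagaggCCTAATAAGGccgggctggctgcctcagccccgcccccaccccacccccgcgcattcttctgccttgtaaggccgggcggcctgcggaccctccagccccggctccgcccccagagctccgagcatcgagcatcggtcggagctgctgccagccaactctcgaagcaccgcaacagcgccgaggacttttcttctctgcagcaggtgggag
Pln: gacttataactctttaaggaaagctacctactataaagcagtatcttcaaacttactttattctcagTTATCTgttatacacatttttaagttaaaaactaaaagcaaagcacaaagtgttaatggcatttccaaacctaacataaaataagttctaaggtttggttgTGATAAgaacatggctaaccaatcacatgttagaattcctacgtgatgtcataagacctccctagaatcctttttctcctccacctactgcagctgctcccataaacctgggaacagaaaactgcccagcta
GATA words were found in 29.8% of 32851 promoters of this length and in 33% of the 27025 genes they belong to, and the CArG box in 1.63% and 1.81%. Of the 21 smooth muscle genes 17 were in the promoter table. A GATA word was found in 2 of the 17 (11.8%), Ldb3 and Pln, and a CArG box in 2 (11.8%), Ldb3 and Myl9. Those 3 genes had log2 fold changes of -0.09, 0.16 and -0.07 (Ldb3, Pln and Myl9). Of the 7 members at an unadjusted p under 0.05, 4 were in the table and none of them held either motif in this window, which says nothing of sites elsewhere.

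Lists of the valve's interstitial cells and its matrix had medians from -0.12 to 0.05, against -0.04 for all genes tested. Counts below 0 in these lists stand against 55.4% below 0 among all genes. Of 21 interstitial and fibroblast genes 18 had a log2 fold change below 0, with a median of -0.12. Major products overlapped widely: Col1a1 had a log2 fold change of 0.10 (95% interval -0.16 to 0.36), Col3a1 of -0.13 (-0.34 to 0.09) and Postn of -0.10 (-0.31 to 0.12). Pi16, a marker of adventitial fibroblasts, lay at 70.5, 66.1, 80.4 and 92.1 CPM in Gata5+/- and at 60.9, 55.4, 21.1 and 46.6 CPM in Gata5-/-. The groups did not overlap, and Gata5-/- replicate 3 was the lowest. The log2 fold change was -0.75 (SE 0.23, unadjusted p 0.0044), or -0.50 without that replicate.

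Of 23 collagen genes 16 had a log2 fold change below 0 and 7 above, with 2 lower and none higher at an unadjusted p under 0.05 and a median of -0.09. Without Gata5-/- replicate 3 the median was -0.02, with 10 above 0 and 13 below. Both of those encode chains of basement membrane collagen, from neighbouring genes. Col4a6 lay at 175, 203, 243 and 172 CPM in Gata5+/- and at 166, 136, 99.5 and 152 CPM in Gata5-/-, without overlap, a log2 fold change of -0.52 (SE 0.15, unadjusted p 0.00243) that was -0.38 without Gata5-/- replicate 3. Col4a5 lay at 329, 401, 415 and 369.9 CPM against 293, 255, 339.9 and 367 CPM, with overlap, a log2 fold change of -0.27 (SE 0.12, unadjusted p 0.0363).

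Proteoglycan genes split by gene. Of 24, 6 had a log2 fold change above 0 and 18 below, with 1 higher and 3 lower at an unadjusted p under 0.05 and a median of -0.08. Acan encodes aggrecan, the large proteoglycan of cartilage that also fills valve matrix. It lay at 144, 199, 188 and 201 CPM in Gata5+/- and at 305, 229, 280 and 204 CPM in Gata5-/-. Its groups did not overlap, though the nearest libraries lay at 201 and 204 CPM, and its log2 fold change was 0.48 (SE 0.19, unadjusted p 0.0254). Has3, a hyaluronan synthase, was on the low side, at 17.0 to 31.6 CPM against 10.7 to 16.8 CPM (log2 fold change -0.63, unadjusted p 0.0293). Hyal1, which breaks hyaluronan down, was also lower in every Gata5-/- library, at 39.3 to 50.5 CPM against 29.0 to 37.9 CPM (log2 fold change -0.38, unadjusted p 0.0464). Itih4, a member of a family of proteins that bind hyaluronan, overlapped between both groups and had a log2 fold change of -0.38 (unadjusted p 0.0395). Its mean was 44.7 CPM in Gata5+/- and 34.4 CPM in Gata5-/-, against 77.4 CPM in wildtype.

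Cartilage genes as a list had no direction, with 9 above 0 and 9 below and a median of 0.05. Col2a1, the main collagen of cartilage, lay at 183, 106, 153 and 125 CPM in Gata5+/- and at 363, 222, 184 and 48.1 CPM in Gata5-/-, so 3 Gata5-/- pools were above all Gata5+/- pools and 1 was below all of them. Sox9, the transcription factor of cartilage, had a log2 fold change of -0.49 with an interval of -1.11 to 0.12.

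Elastic fibre genes had a median of -0.06, with 6 above 0 and 14 below. Mfap2, a microfibril protein, was higher in every Gata5-/- library, at 24.8, 16.5, 16.8 and 28.5 CPM in Gata5+/- and at 30.9, 28.9, 40.5 and 33.5 CPM in Gata5-/- (log2 fold change 0.63, SE 0.23, unadjusted p 0.012). Mfap4, another microfibril-associated protein, was lower on average, at 285 to 333 CPM against 210 to 305 CPM (log2 fold change -0.33, unadjusted p 0.0194). Loxl1, an enzyme that crosslinks elastin, lay at 185 to 232 CPM against 165 to 190.3 CPM (log2 fold change -0.28, unadjusted p 0.0406). Eln itself had a log2 fold change of -0.18 with an interval of -0.49 to 0.14. Among 20 matrix proteases and inhibitors tested, 3 were lower and none higher at an unadjusted p under 0.05: Adamts17 (-0.50), Mmp19 (-1.18, or -0.92 without Gata5-/- replicate 3) and Timp3 (-0.29). Timp3, an inhibitor of matrix proteases, had a mean of 710.5 CPM in Gata5+/-, 579 CPM in Gata5-/- and 592 CPM in wildtype.

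**Figure D3:**
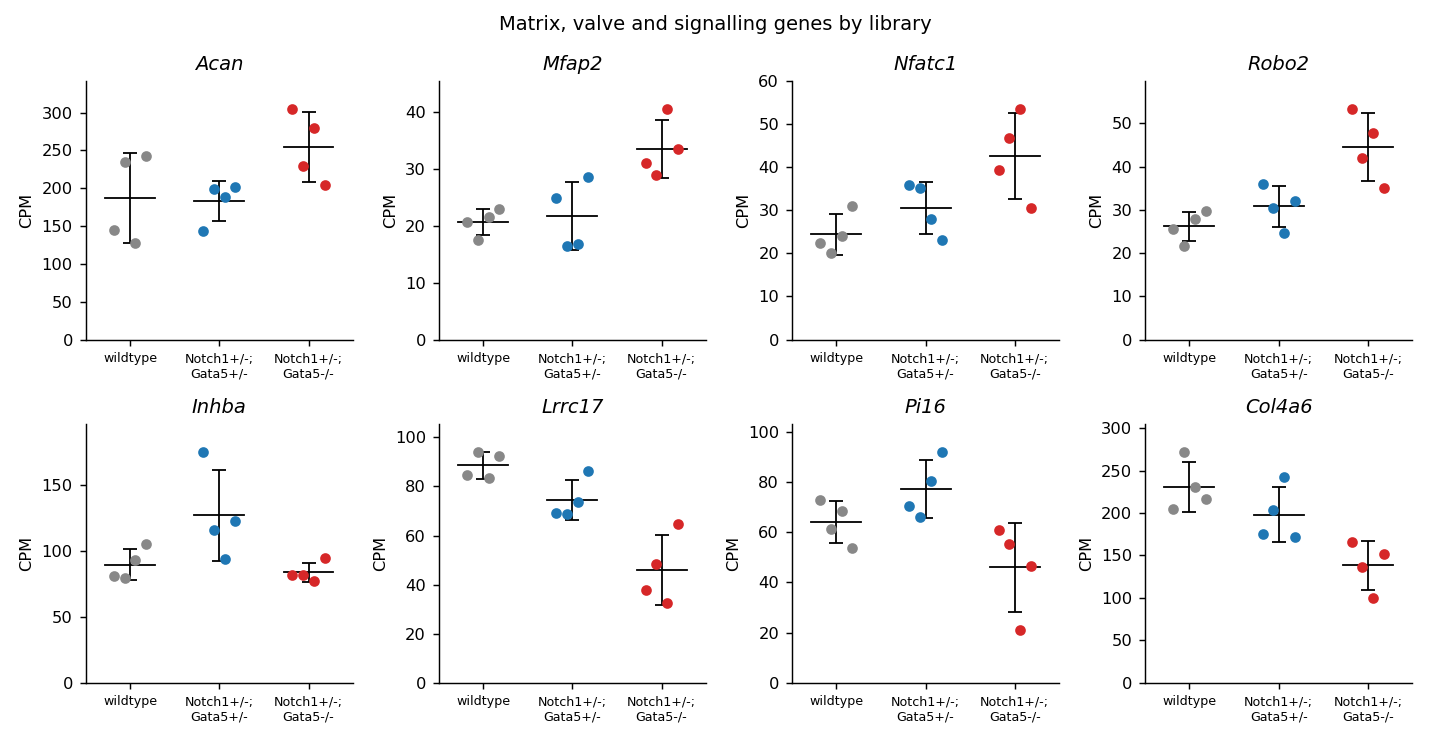
CPM of 8 matrix, valve and signalling genes in the 12 libraries, by genotype (points, 1 library each; line and bar, mean ± SD of 4 libraries; vertical axis from 0). Acan and Mfap2 are higher and Lrrc17, Pi16 and Col4a6 lower in every Gata5-/- library than in any Gata5+/- library, while Inhba, Nfatc1 and Robo2 overlap.

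No gene of the Notch pathway came near a call. Of 25 tested, 16 had a log2 fold change above 0 and 9 below, with a median of 0.09, and none was at an unadjusted p under 0.05 or had groups that did not overlap. Among the receptors, Notch2 had a log2 fold change of 0.16 (95% interval -0.13 to 0.46) and Notch3 of 0.07 (-0.22 to 0.37). Among the ligands, Jag1 lay at 77.5 to 97.9 CPM in Gata5+/- and at 82.5 to 110.2 CPM in Gata5-/- (log2 fold change 0.10, interval -0.22 to 0.42). Of the target genes, Heyl had a log2 fold change of 0.09 (-0.22 to 0.40), Hey2 of -0.06 (-0.52 to 0.41), and the scarce Hes1 of 0.22 (-0.60 to 1.05). The smallest p of the list belonged to Mfng, an enzyme that adds sugars to Notch receptors, at 2.22 to 4.17 CPM against 4.09 to 8.76 CPM (log2 fold change 0.87, unadjusted p 0.179).

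Gata4 and Gata6, the other GATA factors of the heart, had overlapping pools. Gata4 lay at 120.1, 127, 128 and 132 CPM in Gata5+/- and at 132, 125, 141 and 133 CPM in Gata5-/-. The log2 fold change was 0.07 (SE 0.12), with an interval of -0.19 to 0.32. Gata6 lay at 77.9, 89.0, 95.9 and 107 CPM against 117, 92.2, 133 and 111 CPM, a log2 fold change of 0.29 (SE 0.15, interval -0.01 to 0.60, unadjusted p 0.0571), or 0.21 without Gata5-/- replicate 3. Tbx20, a transcription factor of valve development, had a log2 fold change of 0.10 (interval -0.14 to 0.34).

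Nfatc1, the transcription factor that marks valve endocardium, had the smallest p after Gata5 among the GATA factors and their partners. It lay at 36.0, 35.1, 28.1 and 23.1 CPM in Gata5+/- and at 39.4, 46.9, 53.6 and 30.5 CPM in Gata5-/-, with overlap through Gata5-/- replicate 4. The log2 fold change was 0.48 (SE 0.22, unadjusted p 0.0382), or 0.35 without Gata5-/- replicate 3. Endothelial and endocardial genes as a list were centred near 0: 14 of 24 were above 0 and 10 below, the median was 0.04, and Nfatc1 was the only member at an unadjusted p under 0.05. The pan-endothelial Cdh5 had a log2 fold change of -0.03 (interval -0.37 to 0.31) and Pecam1 of -0.13 (-0.46 to 0.20).

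Of 19 genes tied to blood flow 7 had a log2 fold change above 0 and 12 below, with a median of -0.11. At an unadjusted p under 0.05 were 1 higher and 1 lower. Robo2, a receptor for Slit guidance proteins, had the highest fold change of this list. It lay at 36.0, 30.5, 24.7 and 32 CPM in Gata5+/- and at 53.4, 41.9, 47.8 and 35.1 CPM in Gata5-/-. Only Gata5-/- replicate 4 lay inside the Gata5+/- range, and the log2 fold change was 0.53 (SE 0.20, unadjusted p 0.0122). Thbd, the endothelial anticoagulant thrombomodulin, was lower in every Gata5-/- library, at 162 to 186 CPM against 113 to 156 CPM (log2 fold change -0.35, unadjusted p 0.0205).

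Signalling pathways that shape the valve were centred near the median of all genes. Of 28 BMP and TGF-beta genes tested, 11 had a log2 fold change above 0 and 17 below, with a median of -0.03 and none at an unadjusted p under 0.05. Tgfb2, a ligand of valve and outflow tract development, lay at 92.4, 81.6, 91.5 and 87.8 CPM in Gata5+/- and at 80.6, 75.6, 46.5 and 80.5 CPM in Gata5-/-. Its groups did not overlap, Gata5-/- replicate 3 was the lowest, and the log2 fold change was -0.32 (SE 0.17, unadjusted p 0.0798). Of 27 Wnt genes 11 were above 0 and 16 below, with a median of -0.05 and none at an unadjusted p under 0.05. Frzb, a secreted Wnt antagonist, had the smallest p of these, with overlapping pools and a log2 fold change of -0.54 (SE 0.27, unadjusted p 0.0513). Wnt5b, a Wnt ligand, was higher in every Gata5-/- library, at 20.1 to 21.7 CPM against 23.0 to 39.8 CPM (log2 fold change 0.42, unadjusted p 0.0701). Genes of cushion mesenchyme and its origin from endocardium had a median of -0.02, with 9 of 20 above 0 and none at an unadjusted p under 0.05.

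Mineralization genes had a median of -0.04, with 5 of 14 above 0 and 9 below. Apart from Lrrc17, none was at an unadjusted p under 0.05. Alpl, the alkaline phosphatase of mineralizing tissue, was scarce, at 5.52, 5.26, 6.0 and 10.8 CPM in Gata5+/- and at 2.39, 2.07, 0.757 and 5.0 CPM in Gata5-/-. Its groups did not overlap, by a narrow gap, and its log2 fold change was -1.42 (SE 0.69, unadjusted p 0.0501). Matricellular genes had a median of -0.08, with 7 of 19 above 0. Sparc, a collagen-binding matrix protein and the smallest p of that list, had a log2 fold change of -0.19 (SE 0.10, unadjusted p 0.0816). Cell cycle genes had 13 of 23 above 0 and a median of 0.08. Cdk1, the kinase that drives mitosis, was the only one at an unadjusted p under 0.05, at 8.54 to 12.1 CPM against 2.85 to 8.66 CPM with overlap (log2 fold change -0.91, SE 0.43, unadjusted p 0.0459).

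Of the genes with the smallest p-values, 4 more had lower means in Gata5-/-, none of them called by edgeR or DESeq2. Lrrc17, of the mineralization list, a secreted leucine-rich repeat protein that restrains osteoclast formation, lay at 69.3, 68.6, 73.5 and 86.3 CPM in Gata5+/- and at 38.0, 48.4, 32.5 and 64.8 CPM in Gata5-/-. The groups did not overlap (log2 fold change -0.69, SE 0.18, unadjusted p 0.000651; -0.56 without Gata5-/- replicate 3). Mylk4, a kinase related to Mylk, lay at 85.1, 102, 89.8 and 69.8 CPM against 26.9, 48.3, 67.0 and 59.1 CPM, also without overlap (log2 fold change -0.78, SE 0.21, unadjusted p 0.000963).

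Inhba, which encodes the subunit of activin A, lay at 175, 116, 93.5 and 123 CPM in Gata5+/- and at 81.4, 81.5, 77.4 and 94.2 CPM in Gata5-/-. Gata5+/- replicate 1 was the highest, and wildtype, at 89.6 ± 11.9 CPM (SD, n = 4), lay nearer to Gata5-/-. The log2 fold change was -0.60 (SE 0.16, unadjusted p 0.00121), or -0.39 without Gata5+/- replicate 1. Lrch4, a membrane protein with leucine-rich repeats, lay at 26.2 to 33.2 CPM against 10.9 to 17.7 CPM, without overlap (log2 fold change -1.0, SE 0.28, unadjusted p 0.00137). Other lower genes without overlap and with large fold changes were scarce: Entpd2 (-1.67), Dnase2a (-1.54), Scml4 (-1.41) and Camkk1 (-1.34) all lay at 14.3 CPM or less in every Gata5+/- library. Without Gata5-/- replicate 3, Entpd2 had a log2 fold change of -1.26, Scml4 of -1.05 and Camkk1 of -0.94, all nearer to 0, and Dnase2a of -1.64.

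Several genes with higher means in Gata5-/- were much nearer to Gata5+/- without replicate 3. Bcl2l1, which encodes the anti-apoptotic protein Bcl-xL, had the smallest p of the higher genes. It lay at 49.6, 41.5, 50.6 and 46.6 CPM in Gata5+/- and at 77.7, 62.9, 124 and 46.8 CPM in Gata5-/-. The groups overlapped, and the log2 fold change was 0.72 (SE 0.21, unadjusted p 0.0025), or 0.41 without replicate 3. Dgki, a diacylglycerol kinase, lay at 3.28, 6.09, 36.8 and 7.52 CPM in Gata5-/-, and its log2 fold change of 1.92 was 0.68 without that replicate. Msantd3 likewise lay at 18.8, 18.5, 58.9 and 16.1 CPM there, and its log2 fold change of 1.09 was 0.44 without it. Chek2, a kinase of the DNA damage response, went from 1.39 to 0.81, and Pheta1 from 1.0 to 0.59.

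Other higher genes kept most of their difference without that library. Ubac2, a protein of the endoplasmic reticulum membrane, lay at 7.60, 7.99, 12.5 and 12.1 CPM in Gata5+/- and at 20.9, 24.1, 18.8 and 16.4 CPM in Gata5-/-, without overlap. Its log2 fold change was 0.99 (SE 0.30, unadjusted p 0.00291) and 1.03 without replicate 3. Actl6a, an actin-related subunit of chromatin remodelling complexes, lay at 18.9, 20.5, 12.5 and 20.6 CPM against 25.4, 31.8, 39.1 and 29.6 CPM, also without overlap (log2 fold change 0.79, SE 0.24, unadjusted p 0.00309; 0.68 without replicate 3). Mrps30, a protein of the mitochondrial ribosome, overlapped by 1 library and had a log2 fold change of 1.13 (unadjusted p 0.00454; 1.04 without replicate 3). Galnt14, which starts O-linked sugar chains, was scarce and did not overlap, at 1.87 to 3.43 CPM against 5.08 to 10.6 CPM (log2 fold change 1.65, unadjusted p 0.0321; 1.45 without replicate 3).

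**Figure D4:**
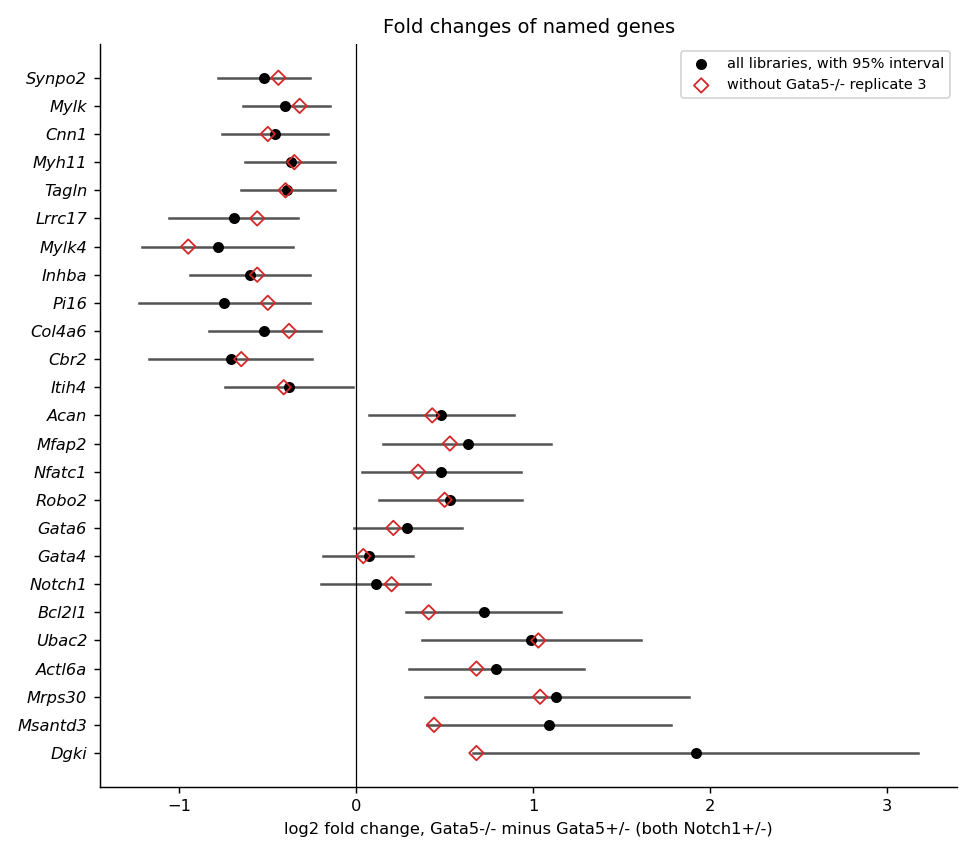
Log2 fold change, Gata5-/- minus Gata5+/-, of 25 named genes with its 95% interval (black) and without Gata5-/- replicate 3 (red diamond). Diamonds of Dgki, Msantd3 and Bcl2l1 lie well to the left of the full estimate, while those of Ubac2, Myh11 and Tagln lie on or beside it, and edgeR called none of the genes drawn.

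Markers of cells other than valve cells overlapped in summed level between both groups. The ventricular and general cardiomyocyte list summed to 35787 to 70115 CPM in Gata5+/- and 47876 to 68336 CPM in Gata5-/-, and 16 of its 25 genes were above 0 with a median of 0.06. Atrial cardiomyocyte genes went the other way, with 10 of 12 below 0 and a median of -0.21, which was -0.36 without Gata5+/- replicate 1 and 0.19 without replicate 4. Fatty acid oxidation genes, abundant in heart muscle, had a median of 0.12 with 16 of 23 above 0. Ech1, an enzyme of that pathway, was higher in every Gata5-/- library, at 95.8 to 135 CPM against 139.5 to 164 CPM (log2 fold change 0.37, unadjusted p 0.0245). All 7 mitochondrially encoded genes tested were above 0 with a median of 0.24 and none at an unadjusted p under 0.05. The part of heart muscle content in these values was not tested. Macrophage genes summed to 301 to 347 CPM in Gata5+/- and 255 to 308 CPM in Gata5-/-, with 13 of 20 below 0 and a median of -0.16. Cbr2, an enzyme of resident macrophages, lay at 46.5, 28.5, 39.8 and 39.2 CPM against 21.3, 18.6, 20.7 and 33.5 CPM, with overlap (log2 fold change -0.71, SE 0.22, unadjusted p 0.00405). The macrophage receptor gene Csf1r had a log2 fold change of -0.08 with an interval of -0.46 to 0.30.

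Skeletal muscle genes summed to at most 66.1 CPM in any of the 8 libraries, lymphocyte genes to at most 47.7 CPM and melanocyte genes to at most 225 CPM. Some lists had medians below that of the smooth muscle list. They were the adipocyte list at -0.41 over 9 genes tested, mast cells and granulocytes at -0.35 over 5, mesothelial and epicardial genes at -0.25 over 12, and the 5 sex-linked genes at -0.56. Without Gata5-/- replicate 3 these were -0.21, -0.30, 0.05 and -0.53. Interferon response genes had a median of 0.37 with 13 of 17 above 0, which was -0.12 without Gata5-/- replicate 1. In that library Ifit3, an interferon-induced gene, lay at 30.1 CPM, against 4.27 to 10.3 CPM in the other 7. Xist, the RNA made from the inactive X chromosome of females, lay at 0.728 CPM in Gata5+/- replicate 4, against 623 to 1849 CPM in the other 7 libraries. The Y-linked Ddx3y lay at 23.3 to 107 CPM in the 8 libraries and was highest in that one. The sex-linked list holds both Xist and Y-linked genes, so its median mixes them, with 4 of 5 below 0 and 1 above. The Y-linked Eif2s3y and Uty had log2 fold changes of -0.97 and -0.70 (unadjusted p 0.0644 and 0.0547 by edgeR). The labels used here give no sex, and whether the sex make-up of the pools differs between the groups was not tested. With the score of Y-linked genes as a covariate, edgeR called 0 genes and 296 stood at an unadjusted p under 0.05.

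Genes that neighbour Gata5 on its chromosome were described as a group. The list held 29 genes, from 12 before Gata5 to 18 after it in the RefSeq order of chromosome 2, and 21 were tested. Col20a1 lies in this run but was not listed. Of these 6 had a log2 fold change above 0 and 15 below, with a median of -0.14, or -0.01 without wildtype replicate 2 and Gata5-/- replicate 3. Gid8, a subunit of a ubiquitin ligase, was the only one at an unadjusted p under 0.05. It lay at 24.9, 40.2, 26.1 and 36.5 CPM in Gata5+/- and at 27.9, 20.1, 15.8 and 25.2 CPM in Gata5-/- (log2 fold change -0.52, SE 0.23, unadjusted p 0.0337), or -0.38 without Gata5-/- replicate 3. Lama5, an abundant laminin gene of the region, had a log2 fold change of -0.04 (interval -0.40 to 0.31).

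**Figure D5:**
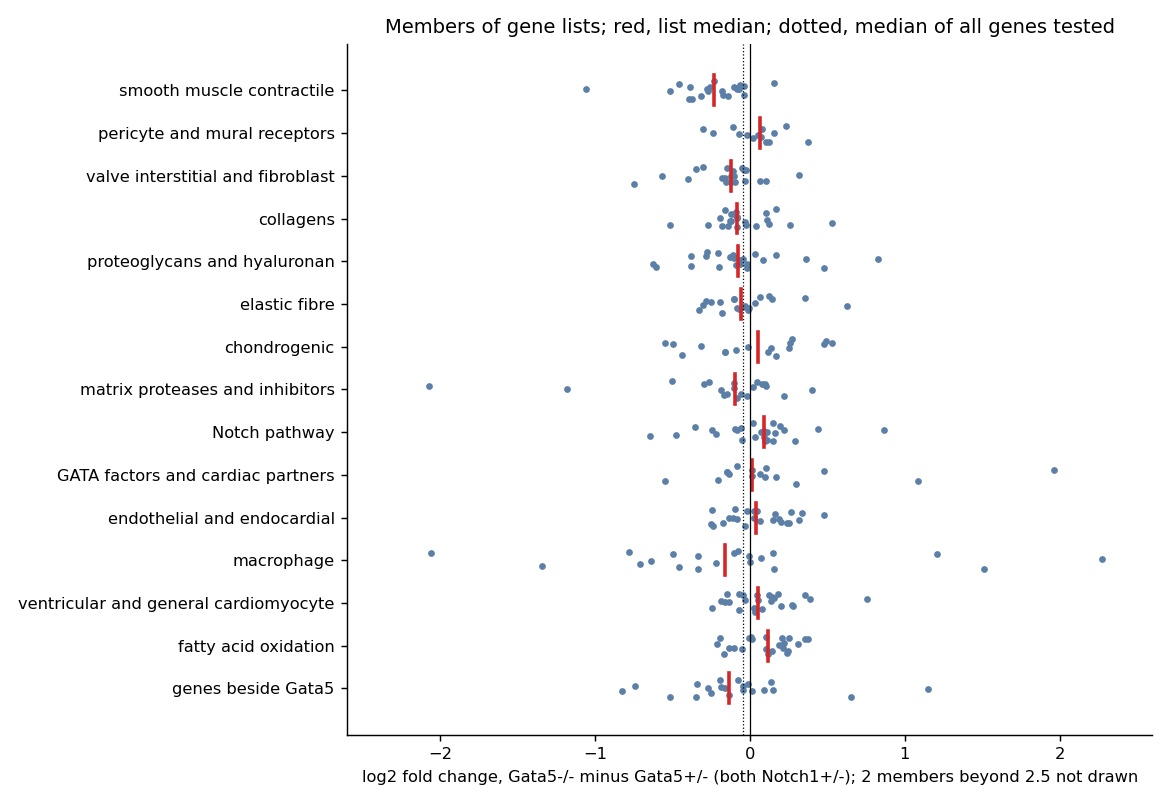
Log2 fold changes, Gata5-/- minus Gata5+/-, of the members of 15 gene lists (points) with each list's median (red bar) and the median of all genes tested (dotted line); 2 members beyond 2.5 are not drawn. The smooth muscle list has a median of -0.23 and the other medians drawn lie between -0.16 and 0.12; lists not drawn reach lower, such as adipocyte genes at -0.41.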

How the data were processed

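Poly-A-selected RNA was sequenced. The submitters' processing notes name Trim Galore, STAR 2.7.10b, DESeq2 1.34.0 and the build GRCm39. How reads were counted, with which annotation release and strand setting, is not given in the sources used here, so overlapping genes on opposite strands may share counts. The deposited table holds raw counts of 20620 genes by the authors. Another table, deposited by the authors with columns named as DESeq2 names them, per the file headers, holds log2 fold changes, p-values, scores (a standard error and a test statistic) and a normalized signal per gene. It names no comparison, and only its gene symbols were used (13959). A gene name table gave 6077 more, and 584 identifiers had none.

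In R 4.3.3 with edgeR 4.0.16, filterByExpr kept 19346 genes and removed 1274, and counts were scaled by TMM. The 12 libraries entered 1 robust quasi-likelihood fit by group, in which Gata5-/- was contrasted with Gata5+/-. Benjamini-Hochberg adjustment took in every gene tested, and genes under 0.05 were called. Intervals (95%) and unadjusted p-values come from that fit, and the latter are not corrected for the number of genes. Permutation tests of single values were exact and two-sided, over 35 splits. The common biological coefficient of variation was 0.68. P-values measure the spread between these pools, which may be partly technical. The procedure was tested on simulated data. Alternatives were RLE and upper quartile scaling, no filter, a filter at a CPM of 1 in 4 libraries, DESeq2 1.42.0 (162 genes without an adjusted p), voom in limma 3.58.1 (with quality weights also), the submitters' thresholds (0.1 for adjusted p, 0.58 for absolute log2 fold change), the 8 libraries alone, each left out in turn, both libraries that stood apart left out, a replicate block, and scores of heart muscle and Y-linked genes as covariates.

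The comparison and the 39 gene lists (702 genes, 641 tested) were chosen with earlier results of these data known. Lists are described by counts and medians, with no test. Genes were named by a rule: Notch1 and Gata5; for each direction, the 6 smallest p-values and the 6 greatest fold changes (at p under 0.05, without overlap) among genes with a symbol and at least 1 in mean log2 CPM; the 3 smallest p-values of each list; and the calls of DESeq2, at most 6 per direction. Outside the rule, Myh11, Tagln, Acta2, Pecam1, Cdh5, Postn, Ttn and Csf1r were given as defining markers. Actg2, Myocd, Col1a1, Col3a1, Col2a1, Eln, Hyal1, Gata4, Tbx20, Notch2, Notch3, Jag1, Heyl, Hey2, Hes1, Lama5, Ldb3, Myl9, Pln, Xist, Ddx3y and the provisional genes at 0 were chosen after their values were seen. Promoter sequences are RefSeq's on GRCm38.p6, matched by symbol; no coordinates on the submitters' build are given.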

Additional observations from a re-analysis of the deposited data

Results flagged for a closer look

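In groups of 4 libraries, 113 sets of values were examined for a highest or lowest library set far from the nearest of the others by Dixon's ratio, and 7 were found; chance gives about 1 in 20. In Gata5+/-, Gata5 in replicate 4 was low at 0.728 CPM, and Entpd2 in replicate 2 was low at 4.65 CPM. In Gata5-/-, replicate 3 was high for Chek2 (17.0 CPM), Dgki (36.8 CPM) and Msantd3 (58.9 CPM), and it is the library with the most genes at 0. Dnase2a in Gata5-/- replicate 2 was low at 0.259 CPM. Upb1 in Gata5-/- replicate 4, at 0.0826 CPM, stood out only because the other 3 were at 0.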

How the results depend on the processing

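Genes called numbered 0 under RLE and upper quartile scaling, both other filters, limma-voom with and without weights, the authors' thresholds, the 8 libraries alone and both covariates. DESeq2 called 13. Without wildtype replicate 2 and Gata5-/- replicate 3, 2 were called, Gata5 (adjusted p 0.0257) and Gp1bb (0.000401), both lower. Leaving out 1 library at a time gave 0 to 1 called: Lgi4 without Gata5-/- replicate 2, Gp1bb without replicate 3 and Shtn1 without replicate 4, each lower, each counted in the library left out and at 0 in the other Gata5-/- libraries, and named after their values were seen. The replicate block called 0 genes, with 634 at an unadjusted p under 0.05; same-numbered libraries correlated at 0.09, 0.03, 0.02 and 0.20 across 10600 genes, and 6 of 8 did so best with their own number, a hint from the data of something shared; since 3 of the 4 are under 0.1 and the labels give no pairing, they were not treated as pairs. The Gata5 difference in mean, -4.09 CPM (exact permutation p 0.0286), was -5.24 to -3.58 CPM with 1 library left out and -4.08 CPM without both, where the smallest possible exact p is 0.0571. Notch1 stayed between 0.04 and 0.20 on the log2 scale over 20 alternatives. Single-gene log2 fold changes of the other 50 genes followed kept their sign in all 20; 4 values passed the threshold (Gata5 by DESeq2 and without both libraries, Upb1 and Synpo2 by DESeq2). The count at an unadjusted p under 0.05 was lowest at 296 (Y-linked covariate, 72 higher and 224 lower) and was 373 with the 8 libraries alone (203 and 170). It was 280 higher and 353 lower under RLE and 143 and 738 by voom. Groups that do not overlap numbered 1001 without Gata5-/- replicate 3, a setting chosen after seeing the data, under which fewer libraries have to be apart. The smooth muscle median ran from -0.36 (without Gata5-/- replicate 4) to -0.17 (with the Y-linked score as a covariate). The 10 list medians that moved by more than the spread between libraries belong to the skeletal muscle, lymphocyte, melanocyte and sex-linked lists; the cause was not tested. Genes under 1 log2 CPM are limited by depth.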
